A study of Mus musculus with 41 samples.

Results

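Wild-type Immature B cells of the mouse spleen were set against wild-type Follicular B cells. The libraries were chosen by their labels and by no measured value: 3 Immature and 4 Follicular libraries, 7 of the 41 in the series. Immature cells had been sorted as B220+CD93+CD138-, a gate that does not use GL7 or FAS. Follicular cells had been sorted as B220+CD93-CD138-GL7-FAS-CD21+CD23+. All mice were 3 to 5 months old, all 7 libraries are labelled wt, and strain and sex are not given by the labels. Each library came from 1 mouse by its library name, and no mouse gave libraries of both groups. Polyadenylated RNA was sequenced in reads of 100 bases. For comparison, the report uses Immature and Follicular libraries labelled 1Mek2, whose genotype is Mek1flox/flox Mek2+/- Tg+/Vav1-icre (Vav1-iCre is active across blood cells), and the wild-type germinal center (GC) libraries of the same 3 mice as the Immature ones, sorted as B220+CD93-CD138-GL7+FAS+.

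Newly made B cells leave the bone marrow as immature cells that carry surface IgM and the receptor CD93. In the spleen they pass through transitional stages and take up IgD, CD21 and CD23 as they become resting follicular cells, which recirculate and respond to helper T cells. In the germinal center, activated B cells divide fast and mutate their immunoglobulin genes.

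Reads were read out in 2 ways from the same libraries: the deposited counts over whole gene spans, introns included (gene-span counts), and reads on exons recovered from the deposited TPM values (exon reads). Gene-span counts came to 19356063 to 21649214 per Immature library and 25201826 to 33450184 per Follicular library, and exon reads to 14994123 to 17659667 per Immature and 15922624 to 29204625 per Follicular library. Several features of the libraries touch every result below. Follicular replicate 4 stood apart: exon reads were 87.3% of its gene-span counts, against 61.7 to 64.3% in Follicular replicates 1 to 3 and 69.3 to 84.6% in Immature libraries. Of 15186 genes tested in exon reads, 3397 had the Immature libraries and Follicular replicate 4 all above Follicular replicates 1 to 3, and 3023 had them all below. The Immature libraries also held reads over genes that B cells do not use. A sum of 26 long genes of neurons had 28.9, 120 and 65.8 exon CPM (reads scaled to a common library size with TMM factors) in Immature replicates 1, 2 and 3, against 0.54 to 4.21 CPM in Follicular libraries. Y-linked genes summed to 257 exon CPM in Follicular replicate 2 and to at most 0.0685 in each of the other 6 libraries. The part of these features in single results was not tested beyond the values given beside them.

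In gene-span counts 7938 of 20144 genes differed (39.4%), 6498 higher in Immature (32.3%) and 1440 lower (7.15%), at an adjusted p under 0.05 in edgeR's quasi-likelihood test. In exon reads 999 of 15186 differed (6.58%), 715 higher (4.71%) and 284 lower (1.87%). The median log2 fold change over all genes tested was 0.47 in gene-span counts and 0.12 in exon reads, and with DESeq2's RLE scaling the gene-span median was 0.30. DESeq2 called 70.7% of its gene-span calls higher in Immature, against 81.9% with edgeR, and in exon reads it called 1303 genes higher and 1360 lower. Both readouts called 787 of 13119 genes with the same sign (6%), 552 higher (4.21%) and 235 lower (1.79%), and for 747 of these (5.69%) the groups did not overlap in either readout, 535 higher (4.08%) and 212 lower (1.62%). Of all genes tested, every Immature library lay above every Follicular one in 33.8% and below in 9.4% in gene-span counts, and in 12.5% and 8.85% in exon reads. Of the 552 higher genes, 221 had Immature levels under 2 times what the density of reads on the neuronal genes would give for their length in both readouts. With that background subtracted by length, 49 genes were called in both readouts, 47 of them among the 787. The exon calls rested on few libraries: no gene passed without Immature replicate 3, Follicular replicate 2 or Follicular replicate 3 (3463, 2443 and 2531 at an unadjusted p under 0.05), 57 passed without Immature replicate 2, 30 without Follicular replicate 1, and 5413 without Follicular replicate 4. Adjusted p-values in exon reads are therefore given below as those of all 7 libraries. Unless another tool is named, a call below is that of edgeR's quasi-likelihood test.

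**Figure D1:**
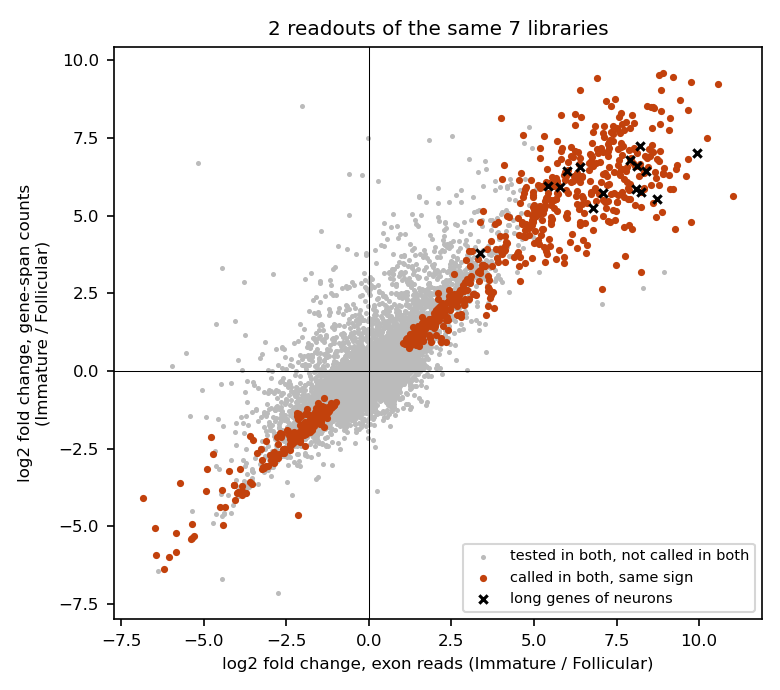
Log2 fold change of Immature over Follicular libraries in exon reads (x) and in gene-span counts (y), 1 point per gene tested in both readouts. The 787 genes called in both with the same sign are in red and the long genes of neurons are crosses, which lie among the highest values on both axes.

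Cd93, the sort marker, and the early B cell regulators Myb and Sox4 were higher in Immature libraries. Cd93 (chromosome 2, bases 148278571 to 148285455, GRCm39), which encodes the gated receptor, had 64.7, 53.1 and 81.1 exon CPM in Immature libraries, against 2.28, 6.08, 9.10 and 6.52 in Follicular libraries. Its groups were far apart, with a log2 fold change of 3.46 ± 0.48 (SE) and an adjusted p of 0.018 in edgeR's quasi-likelihood test (exon reads, n = 3 and 4). Myb (chromosome 10, bases 21000829 to 21036883), a transcription factor of dividing progenitors, had 12.3, 17 and 26.7 exon CPM in Immature libraries and 1.02, 0.602, 1.29 and 0.326 in Follicular libraries, a log2 fold change of 4.52 ± 0.67 with an adjusted p of 0.0207. Sox4, a transcription factor of early lymphoid cells, had 11.1, 24.4 and 18.4 exon CPM in Immature libraries and 0.899, 3.94, 2.13 and 1.05 in Follicular libraries. Every Immature library lay above every Follicular one for the 3 genes, and Sox4 passed at a log2 fold change of 3.16 and an adjusted p of 0.0265 in edgeR's test of exon reads. Dntt (chromosome 19, bases 41017701 to 41047964), the terminal transferase that adds bases at V(D)J joints, was uneven: 6.90, 0.339 and 0.753 exon CPM in Immature libraries, against 0.0599 in Follicular replicate 1 and 0 in the other Follicular libraries. It was called in gene-span counts (6.37 ± 1.26, adjusted p 0.00118 in edgeR's quasi-likelihood test) and had too few exon reads to be tested. The gene-span level of Dntt was 6.05, 0.793 and 1.10 times what the read density on neuronal genes gives for its length in the 3 Immature libraries, so replicate 1 alone lay well above that level. Rag1, a subunit of the V(D)J recombinase, had 0.122, 6.45 and 0.205 exon CPM in Immature libraries and 0 in all 4 Follicular ones, so replicate 2 was the high library there and replicate 1 for Dntt. Cd93 thus followed its gate, and the recombination genes were high in 1 library each.

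Of 16 genes listed for immature identity, 10 could be tested in gene-span counts, with 6 higher and none lower, and 8 in exon reads, with 3 higher (Cd93, Myb, Sox4) and none lower. Over all genes 32.3% were higher in gene-span counts, and with background subtracted 2 of the list were. DESeq2 and limma voom also called none lower, and 5 of the 8 had an unadjusted p under 0.05 in exon reads. The list's median log2 fold change was 2.21 in gene-span counts and 1.19 in exon reads, against 0.47 and 0.12 over all genes. Vpreb3, a chaperone-like part of the early receptor complex, was called in gene-span counts at 0.84 and had 479, 581 and 740 exon CPM in Immature libraries, against 296, 457, 339 and 255 in Follicular libraries. These groups did not overlap, but exon reads did not pass (adjusted p 0.11, edgeR's quasi-likelihood test). Erg and Kit, a transcription factor and a receptor of blood progenitors, were called in gene-span counts only, and neither exceeded 0.95 exon CPM in any Immature library. Lef1, a Wnt-pathway transcription factor, had 40.3, 44.0 and 61.1 exon CPM in Immature libraries and 3.77, 5.64, 34.8 and 22.0 in Follicular libraries. Its groups did not overlap, with an adjusted p of 0.19 in edgeR's test of exon reads.

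**Figure D2:**
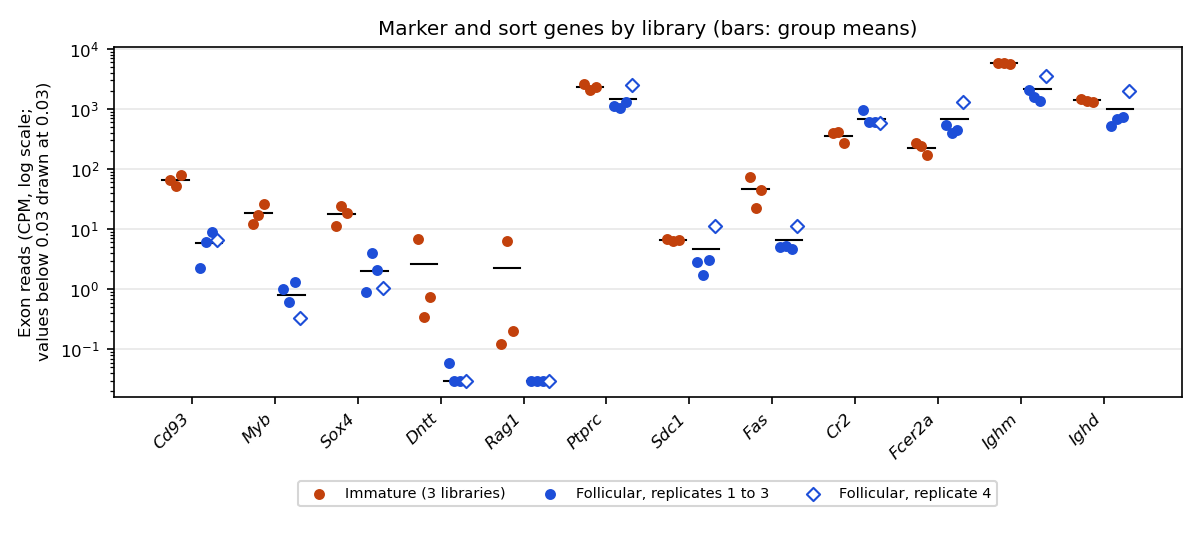
Exon reads (CPM, log scale, values below 0.03 drawn at 0.03) of marker, sort and immunoglobulin genes in each Immature library (red, left) and each Follicular library (blue, right; replicate 4 as an open diamond), with bars at the group means. Cd93, Myb and Sox4 do not overlap between groups, and replicate 4 is the highest Follicular point for Ptprc, Sdc1, Fcer2a, Fas, Ighm and Ighd.

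The genes of the other sorted proteins were mostly as the gates describe. Cr2, which encodes CD21, had 407, 410 and 271 exon CPM in Immature libraries and 947, 612, 612 and 575 in Follicular libraries. Fcer2a, which encodes CD23, had 268, 243 and 173 exon CPM in Immature libraries and 541, 397, 448 and 1330 in Follicular libraries. Neither overlapped between groups. Both were called lower in gene-span counts (-1.09 with an adjusted p of 0.00891 for Cr2 and -1.79 with 0.00933 for Fcer2a, edgeR's quasi-likelihood test), and neither passed in exon reads (0.0895 and 0.0652). Ptprc, whose product carries the B220 epitope, did not pass in either readout (log2 fold change 0.66 ± 0.33 in exon reads), nor did Sdc1, which encodes CD138, at 6.31 to 6.90 exon CPM in Immature libraries and 1.70 to 11.1 in Follicular libraries. Fas, gated out of the Follicular sort and not used in the Immature one, had 72.9, 22.5 and 44.3 exon CPM in Immature libraries, against 4.97, 5.2, 4.67 and 11.1 in Follicular libraries (2.84 ± 0.52, adjusted p 0.0254).

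Of 16 genes of mature follicular cells, 7 of 14 tested were lower in gene-span counts and 2 of 16 in exon reads, with none higher in either, beside medians of -0.83 and -0.44. Over all genes 7.15% were lower in gene-span counts and 1.87% in exon reads. In exon reads DESeq2 called 7 of the 16 listed genes lower and none higher, and limma voom 2 lower and none higher. Without Follicular replicate 4 edgeR's test called 8 lower and 4 higher in exon reads. The 2 that fell in both readouts encode homing proteins. Ccr6, a chemokine receptor, had 199, 185 and 105 exon CPM in Immature libraries and 558, 504, 362 and 372 in Follicular libraries, a log2 fold change of -1.46 ± 0.32 with an adjusted p of 0.0280 in edgeR's test. Itgb7, the beta subunit of a gut-homing integrin, had 112, 109 and 104 exon CPM in Immature libraries and 332, 200, 201 and 264 in Follicular libraries (-1.20 ± 0.29, adjusted p 0.0363). Follicular replicate 4 lay with its group for both genes. The other members called in gene-span counts were Cr2, Fcer2a, S1pr1, the receptor for exit into the blood, Il4ra, and Bcl2, the survival factor. S1pr1 showed how replicate 4 differed: Immature libraries had 298, 369 and 171 exon CPM, against 808, 701 and 957 in Follicular replicates 1 to 3 and 293 in replicate 4. Cxcr5, Ccr7 and Tnfrsf13c (the BAFF receptor) went the other way, with Follicular replicate 4 the highest library of the 7 and replicates 1 to 3 below every Immature library. Ccr7, which guides cells to T zones, had 421, 347 and 271 exon CPM in Immature libraries and 162, 109, 161 and 857 in Follicular libraries, and did not pass (0.10, adjusted p 0.93). Without Follicular replicate 4, exon reads called 4 of these 16 genes higher and 8 lower.

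The heavy chain of IgM and switched heavy chains were higher in Immature libraries. Ighm (chromosome 12) had 5871, 5832 and 5653 exon CPM in Immature libraries, against 2068, 1600, 1345 and 3591 in Follicular libraries, with no overlap and a log2 fold change of 1.43 ± 0.33 (adjusted p 0.0315, edgeR's test of exon reads). Ighd had 1486, 1377 and 1302 exon CPM in Immature libraries and 519, 683, 732 and 2034 in Follicular libraries. Replicate 4 was again the highest of all libraries, and Ighd did not pass (0.48 ± 0.43, adjusted p 0.492). Without that library Ighd was called higher in Immature, at 1.01. Of 12 constant-region and J chain genes tested in exon reads, 7 were higher and none lower, beside 4.71% higher over all genes. DESeq2 called 6 of the list higher and limma voom 4. With edgeR's test 1 was called higher with background subtracted and 0 to 8 with 1 library left out. Ighg1 had 456, 20.4 and 36.8 exon CPM in Immature libraries and 3.28 to 14.6 in Follicular libraries, and Ighg2b, Ighg2c and Igha were likewise called, each highest in Immature replicate 1. Igha had 151, 69.5 and 7.60 exon CPM in Immature libraries, against 5.13 to 8.29 in Follicular libraries, so replicate 3 lay within the Follicular range. Among light chains Iglc1 was called (1.07, adjusted p 0.0453), and Igkc, Iglc2 and Iglc3 were not. The immunoglobulin genes were not tested in gene-span counts, apart from Igha and Jchain, and the near-identical Iglc genes may share reads.

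Genes of germinal center B cells were among the most increased. Gcsam (chromosome 16, bases 45430803 to 45443230), a signalling adapter named for germinal centers, had 128, 2.71 and 40.0 exon CPM in Immature libraries and 0, 0, 0.231 and 0 in Follicular libraries (9.75 ± 1.48, adjusted p 0.0219, edgeR's quasi-likelihood test). Rgs13, which limits chemokine signalling there, had 175, 23.6 and 70.5 exon CPM in Immature libraries and 0 to 1.34 in Follicular libraries. In both genes replicate 1 was the highest Immature library and replicate 2 the lowest, and no library overlapped the other group. S1pr2, the receptor that holds cells in the follicle centre, had 60.8, 2.24 and 20.8 exon CPM in Immature libraries, against 1.74, 1.15, 0.878 and 0.109 in Follicular libraries (4.86 ± 1.09, adjusted p 0.0295). Mybl1, a transcription factor, was more even, with 41.1, 26.7 and 30.6 exon CPM in Immature libraries and 0.398 to 1.86 in Follicular libraries. Bcl6, the repressor that germinal center cells depend on, did not move with them: Immature libraries had 144, 163 and 96.2 exon CPM, against 411, 379, 348 and 54.1 in Follicular libraries, which did not pass (-1.15, adjusted p 0.23). Of 9 genes in the list, 7 were higher in gene-span counts and 6 in exon reads, with none lower (DESeq2 called 1 lower in gene-span counts), and all 6 called in exon reads were highest in Immature replicate 1 and lowest in replicate 2. The shares called higher over all genes tested were 32.3% in gene-span counts and 4.71% in exon reads. In bulk RNA, a different number of cells of a type and a different amount of RNA per cell cannot be told apart.

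The GC libraries of the same 3 mice give a scale for these values. In a joint scaling with mouse as a block, Gcsam had 590, 378 and 713 exon CPM in GC libraries, and the Immature libraries lay below them by a log2 fold change of -4.43 (adjusted p 3.9e-26, edgeR's test). All 9 genes of the germinal center list were lower in Immature than in GC libraries, in exon reads and in gene-span counts alike. Over all genes, 1426 of 14834 differed in exon reads (9.61%), 682 higher in Immature (4.6%) and 744 lower (5.02%), and 269 of 21379 in gene-span counts (1.26%). The gene-span count was 0 without the mouse of replicate 3 (314 at an unadjusted p under 0.05), 5 without that of replicate 2 and 4964 without that of replicate 1. Cd93 was higher in Immature libraries by 5.70 in exon reads, while Myb did not differ at the threshold (0.40, adjusted p 0.84). Mature follicular genes were also higher in Immature than in GC libraries, with 10 of 16 called and none lower, and Ighd was higher by 4.19.

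Cell-cycle genes were higher in Immature than in Follicular libraries as a group. Of 35 listed genes, 21 were higher and 1 lower in gene-span counts, and 16 were higher and none lower in exon reads, all 16 in both. Of all genes tested, 32.3% were called higher in gene-span counts and 4.71% in exon reads. In exon reads DESeq2 called 24 of the 35 listed genes higher and 1 lower, and limma voom 15 higher. Of the 35, 30 had an unadjusted p under 0.05 in edgeR's test. The list's median log2 fold change was 2.09 in gene-span counts and 2.82 in exon reads. Top2a, the topoisomerase that untangles replicated chromosomes, had 342, 45.3 and 109 exon CPM in Immature libraries, against 5.21, 5.2, 6.24 and 4.82 in Follicular libraries (4.94 ± 0.62, adjusted p 0.0148, edgeR's quasi-likelihood test). Mki67, which coats mitotic chromosomes, had 270, 45.1 and 88.8 exon CPM in Immature libraries and 0.599, 3.12, 3.88 and 3.48 in Follicular libraries (5.59 ± 0.76, adjusted p 0.0168). Bub1, a kinase of the spindle checkpoint, had 39.5, 6.79 and 15.9 exon CPM in Immature libraries and 0.109 to 0.254 in Follicular libraries (6.68 ± 0.80). Cenpe, a kinetochore motor, had 98.8, 15.4 and 29.7 exon CPM in Immature libraries and 1.74 to 3.84 in Follicular libraries (4.15 ± 0.65). The 4 genes do not overlap between groups. The order of the Immature libraries was that of the germinal center genes: replicate 1 was highest for 33 of the 35 cell-cycle genes and replicate 2 lowest for 30. Replicate 2 was the library with most reads on neuronal genes. The 16 exon calls became 25, with 1 gene lower, without Follicular replicate 4, 0 to 25 over all libraries left out in turn, and 5 with background subtracted, and the 21 gene-span calls 16 to 24 and 14.

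The list was not uniform. Genes of mitosis such as Ccnb2, Kif11, Aurkb and Birc5 were called in both readouts, whereas of the helicase subunits Mcm2 to Mcm7 only Mcm6 was called in exon reads. Mcm4 had 168, 74.3 and 106 exon CPM in Immature libraries and 16.1, 21.7, 26.1 and 104 in Follicular libraries, so Follicular replicate 4 lay among the Immature values, as it did for Pcna and Rrm1. Cdt1, which licenses replication origins, was the 1 gene called lower in gene-span counts (-0.95), with 69.2, 48.5 and 39.3 exon CPM in Immature libraries and 118, 89.9, 92.5 and 98.6 in Follicular libraries. Against GC libraries of the same mice, 31 of the 35 genes were lower in Immature libraries in exon reads and none was higher, beside 5.02% lower over all genes. The kinetochore gene Ska1 and the mitotic kinesin gene Kif2c, named by size of change, followed the same order: Kif2c had 57.9, 8.48 and 9.86 exon CPM in Immature libraries, against 0 to 0.109 in Follicular libraries.

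**Figure D3:**
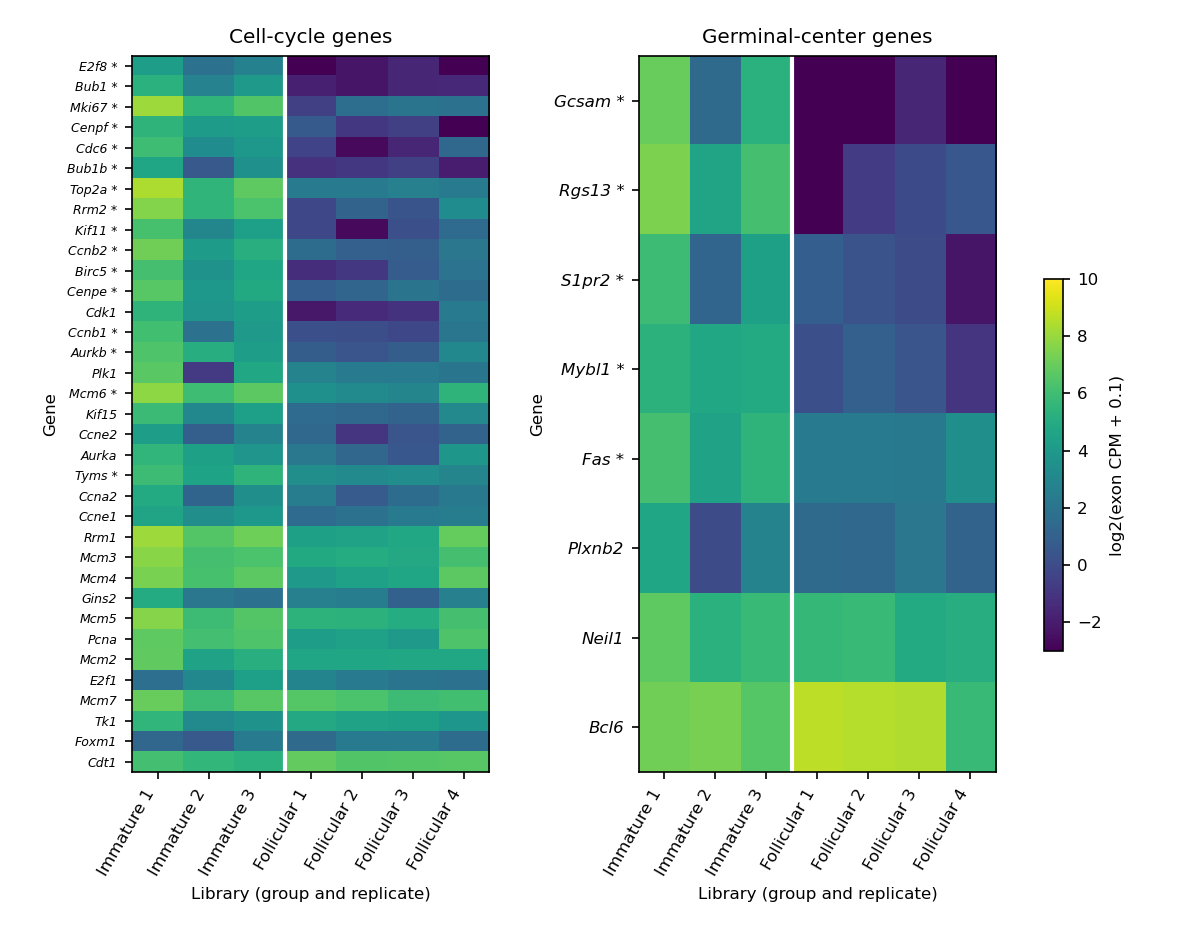
Level of each cell-cycle gene (left) and 8 of the 9 germinal center genes (right) as log2(exon CPM + 0.1) in the 3 Immature libraries and, right of the white line, the 4 Follicular libraries; stars mark genes called in exon reads. Immature replicate 1 is the brightest column for 33 of 35 cell-cycle genes, and Bcl6 runs against the other germinal center genes.

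Promoters of 4 of these genes are shown because the cell-cycle genes moved together and because such promoters are known to carry a cell-cycle homology region (CHR) near CCAAT boxes. The sequences are RefSeq's on GRCm38.p6, from 250 bases before to 50 after the start of the gene, written 5′ to 3′ on the strand of the gene. The windows are chr2:127831810-127832109 (minus strand) for Bub1, chr11:99024140-99024439 (minus strand) for Top2a, chr7:135716330-135716629 (minus strand) for Mki67 and chr3:135212313-135212612 (plus strand) for Cenpe. Capitals mark the CHR letters TTTGAA or TTCGAA and the CCAAT box, on either strand.
Bub1: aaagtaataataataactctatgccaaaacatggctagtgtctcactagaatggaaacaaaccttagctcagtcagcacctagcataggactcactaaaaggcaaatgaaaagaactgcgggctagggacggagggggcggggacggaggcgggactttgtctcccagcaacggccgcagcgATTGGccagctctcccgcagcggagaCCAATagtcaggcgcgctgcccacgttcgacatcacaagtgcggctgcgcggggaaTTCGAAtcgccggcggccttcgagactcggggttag
Top2a: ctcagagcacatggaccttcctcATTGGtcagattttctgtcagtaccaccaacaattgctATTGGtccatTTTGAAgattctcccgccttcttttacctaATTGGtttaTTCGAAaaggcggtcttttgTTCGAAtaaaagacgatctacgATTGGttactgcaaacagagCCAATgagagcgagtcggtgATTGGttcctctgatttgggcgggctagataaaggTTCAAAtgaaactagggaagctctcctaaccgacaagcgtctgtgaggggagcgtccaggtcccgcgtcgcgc
Mki67: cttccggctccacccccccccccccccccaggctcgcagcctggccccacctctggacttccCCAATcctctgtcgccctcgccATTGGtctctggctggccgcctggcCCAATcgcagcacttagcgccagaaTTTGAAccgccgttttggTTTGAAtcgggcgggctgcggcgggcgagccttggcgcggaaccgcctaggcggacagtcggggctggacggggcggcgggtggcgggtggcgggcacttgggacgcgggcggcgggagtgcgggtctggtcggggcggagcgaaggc
Cenpe: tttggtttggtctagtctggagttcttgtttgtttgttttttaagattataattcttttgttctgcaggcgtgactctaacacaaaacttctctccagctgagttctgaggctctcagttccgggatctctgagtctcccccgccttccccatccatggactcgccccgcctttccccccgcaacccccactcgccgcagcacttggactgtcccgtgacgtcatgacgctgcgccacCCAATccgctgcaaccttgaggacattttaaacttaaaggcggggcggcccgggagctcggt

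The windows of Bub1, Top2a and Mki67 held both motifs, and that of Cenpe held a CCAAT box. Among the 16 cell-cycle genes called in exon reads, 15 had a promoter in the table. Of these 8 (53.3%) held a CHR, 12 (80.0%) a CCAAT box and 8 (53.3%) both. Among the other 19 genes of the list, 14 had a promoter, of which 6 (42.9%) held a CHR, 9 (64.3%) a CCAAT box and 5 (35.7%) both. Of all 27025 promoters of the same length, 19.4% held a CHR, 37.9% a CCAAT box and 7.70% both. These are matches of letters, counted on both strands.

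Increases were also called for genes best known from other cells. Jchain, which joins IgA and IgM subunits and is abundant in plasma cells, had 1046, 304 and 251 exon CPM in Immature libraries, against 5.99, 8.10, 4.21 and 23.2 in Follicular libraries (5.68 ± 0.74, adjusted p 0.0148, edgeR's quasi-likelihood test). In GC libraries of the same mice it had 1327, 1136 and 1936 exon CPM. Siglech (chromosome 7, bases 55417916 to 55429196), a lectin of plasmacytoid dendritic cells, had 146, 19.3 and 83.6 exon CPM in Immature libraries and 0.599, 0.438, 0.601 and 2.79 in Follicular libraries (6.19 ± 0.87, adjusted p 0.0192), and at most 0.894 in GC libraries. Of 8 listed genes of plasmacytoid dendritic cells, exon reads called Siglech and Cox6a2 higher and Pacsin1 lower. Over all genes 4.71% were higher and 1.87% lower. The sum of the 8 was 2887 ± 218 exon CPM in Immature and 3156 ± 734 in Follicular libraries (SD), with overlap. Siglech, at a mean of 82.9 exon CPM in Immature libraries, was a small part of that sum. Against GC libraries of the same mice, 5 of the 8 were higher in exon reads and 2 lower, beside 4.6% and 5.02% over all genes. In gene-span counts 1 of 7 tested was higher and none lower. Cox6a2 had 10.3, 9.43 and 9.86 exon CPM in Immature libraries and 0.164 to 0.539 in Follicular libraries. Nuggc, a nuclear GTPase known from germinal center cells, had 23.2, 26.3 and 6.43 exon CPM in Immature libraries and 0 to 1.16 in Follicular libraries.

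Agbl1 (chromosome 7, bases 75879311 to 76774446), which encodes a carboxypeptidase that trims glutamates, had 5.86, 32.4 and 45.3 exon CPM in Immature libraries and 0, 0, 0 and 0.145 in Follicular libraries. Its Immature level was 59.1 times what the density on neuronal genes gives for its exon length, and 6.14 times by gene span, although 5.90% of its gene-span counts lay on exons. Kcnd2, a potassium channel gene, and Pcdh9, a protocadherin gene, both long and best known from neurons, were also among the 12 most increased. Unlike Agbl1, both lay near the level that density gives. The Immature level of Kcnd2 was 0.884 times it by exon length and 1.04 times by gene span. For Pcdh9 the values were 0.954 and 0.995. Kcnd2 had 5.19, 15.9 and 9.72 exon CPM in Immature libraries and 0.0547 to 0.180 in Follicular libraries, highest in replicate 2 as the neuronal sum was. LOC118568479, a gene model on an unplaced contig, had 6.22, 23.3 and 17.2 exon CPM in Immature libraries and 0.139 to 0.274 in Follicular libraries.

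Markers of other cells were summed per library in exon CPM, for 17 lists, 16 of cell types, stress, sex or progenitors and the neuronal one. With 3 against 4 libraries the smallest exact two-sided permutation p is 0.0571, so no sum could pass 0.05. Sums that did not overlap were those of B1 cells (192 ± 50.7 in Immature and 98.4 ± 38.2 in Follicular libraries, SD), plasma cells (1077 ± 597 and 285 ± 156), dendritic cells (52.5 ± 13 and 24.8 ± 2.80), neutrophils (5.75 ± 3.38 and 0.805 ± 1.05) and the neuronal genes. In gene-span CPM 3 of these did not overlap, those of dendritic cells, neutrophils and the neuronal genes. There the plasma cell sum overlapped (870 ± 516 in Immature and 306 ± 162 in Follicular libraries), and the B1 sum was lower in Immature, 214 ± 77.2, than in Follicular libraries, 266 ± 110, also with overlap. The B1 sum in exon reads was carried by Bhlhe41, a transcription factor, with 74.2, 63.9 and 108 exon CPM in Immature libraries, against 0.958, 7.06, 4.07 and 6.84 in Follicular libraries. Of the 12 macrophage and monocyte genes, Ccr2 and Ly6c2 were called in both readouts, and the sum overlapped between groups (264 to 709 in Immature and 112 to 365 in Follicular libraries). Both readouts called 4.21% of all genes tested higher. T cell genes summed to 39.1 to 75.3 exon CPM in Immature libraries and 25.3 to 187 in Follicular libraries, with none of 14 tested genes called. What these sums contribute to the other differences was not tested.

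Among genes that fell, several held in every Follicular library. Rflnb (chromosome 11, bases 75910020 to 75918608), which encodes a protein that binds filamin, had 17.5, 14.9 and 14.4 exon CPM in Immature libraries, against 172, 251, 207 and 123 in Follicular libraries (-3.60 ± 0.36, adjusted p 0.0148, edgeR's quasi-likelihood test). Pglyrp1, a peptidoglycan recognition protein, had 8.73, 9.77 and 8.28 exon CPM in Immature libraries and 73.4, 94.1, 62.4 and 68.7 in Follicular libraries (-3.06 ± 0.35). Sh2d2a, an adapter known from T cells, had 40.5, 26.3 and 21.0 exon CPM in Immature libraries and 295, 233, 249 and 116 in Follicular libraries (-2.93 ± 0.42). No Immature library reached the lowest Follicular one for these 3 genes, and replicate 4 was the lowest Follicular library for Rflnb and Sh2d2a. B3gnt7, a glycosyltransferase, had 3.49 to 5.84 exon CPM in Immature libraries and 19.0, 23.0, 97.1 and 102 in Follicular libraries, so its Follicular libraries split into a low and a high pair. Dok2, an adapter that dampens tyrosine kinase signalling, had 54.7, 11.2 and 6.09 exon CPM in Immature libraries and 518, 429, 311 and 117 in Follicular libraries. Dusp7, a phosphatase acting on ERK, had 4.70, 2.44 and 5.89 exon CPM in Immature libraries and 19.8, 70.7, 49.9 and 17.2 in Follicular libraries.

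For other genes Follicular replicate 4 lay far below its group. Ap5b1, a subunit of an adaptor complex of endosomes, had 0.061, 0.136 and 0.411 exon CPM in Immature libraries, against 23.4, 35 and 32.7 in Follicular replicates 1 to 3 and 2.90 in replicate 4 (-6.83 ± 1.09, adjusted p 0.0219). Against replicate 4 alone the log2 fold change of Ap5b1 was -3.92 and did not pass (adjusted p 0.363). Lrrc14 had 54.6, 28.3 and 36.9 exon CPM in Immature libraries, 351, 457 and 508 in Follicular replicates 1 to 3 and 61.4 in replicate 4. Qrfp, a neuropeptide precursor, and Chpf, an enzyme of chondroitin synthesis, showed the same layout. The noncoding RNA Lncpint and the polarity gene Crb3 lay between, with replicate 4 the lowest Follicular library. Of the 235 genes called lower in both readouts, Follicular replicate 4 was the lowest of the 4 Follicular libraries in 201. Qrfp lies within the span of Abl1, Dok2 overlaps Xpo7 and Lrrc14 overlaps Recql4, and 26 of the 52 named genes overlap some other gene span. How reads in overlaps were counted, and whether by strand, is not given in the sources used here.

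**Figure D4:**
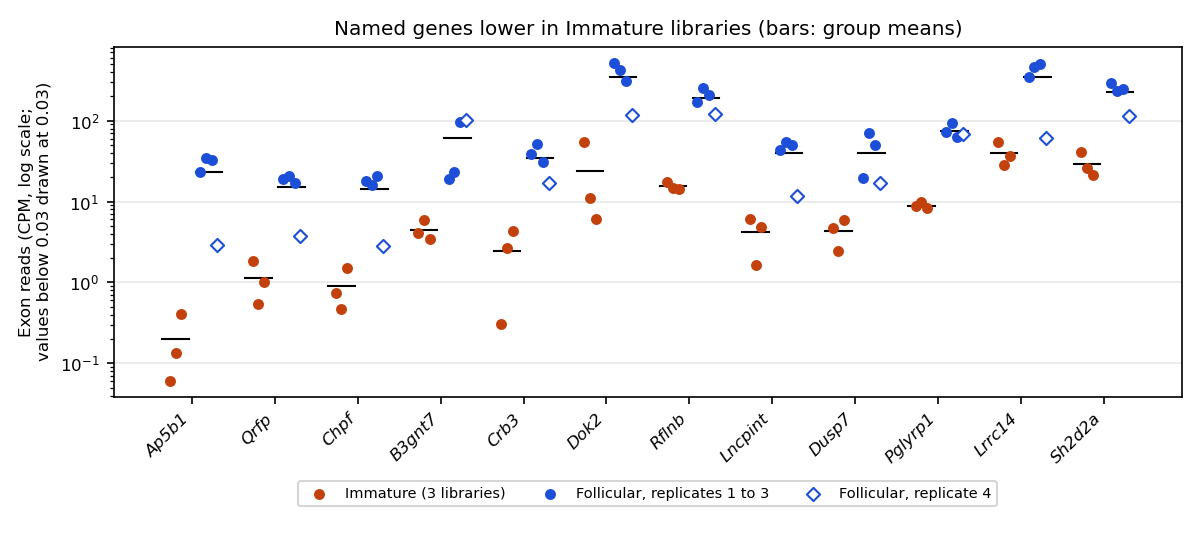
Exon reads (CPM, log scale) of the 12 named genes with the largest fall, in each Immature library (red, left) and Follicular library (blue, right; replicate 4 as an open diamond), with bars at the group means. The open diamond lies well below the other Follicular points for Ap5b1, Qrfp, Chpf and Lrrc14 and with its group for Pglyrp1 and B3gnt7.

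Genes of the NF-kB and immediate early programs were lower where edgeR's test of all 7 libraries called them. That test called 7.15% of all genes lower in gene-span counts and 1.87% in exon reads. Of 17 genes of BAFF, CD40 and NF-kB signalling, 7 were lower in gene-span counts and none higher, and in exon reads edgeR's test called Nfkb2 alone, lower. In exon reads DESeq2 called 5 lower, limma voom none (6 at an unadjusted p under 0.05 in edgeR's test), and without Follicular replicate 4 edgeR's test called 7 lower and 3 higher. Nfkb2, the precursor of the p52 subunit, had 86.1, 84.7 and 71.1 exon CPM in Immature libraries, against 562, 420 and 340 in Follicular replicates 1 to 3 and 101 in replicate 4 (-2.14 ± 0.50, adjusted p 0.0339, edgeR's quasi-likelihood test). Against replicate 4 alone, none of the list's genes was called in either readout. Of 18 immediate early genes, Ier2 and Junb fell in both readouts. For this list DESeq2 called 1 higher and 3 lower in exon reads, and limma voom 2 lower. Without Follicular replicate 4 edgeR's test called 3 higher and 4 lower in exon reads. Ier2 had 307, 212 and 203 exon CPM in Immature libraries and 977, 696, 744 and 660 in Follicular libraries (-1.67 ± 0.29, adjusted p 0.0253). Junb, an AP-1 subunit, had 183, 168 and 97.1 exon CPM in Immature libraries and 1116, 1134, 1001 and 238 in Follicular libraries (-2.54 ± 0.52, adjusted p 0.0260). All 4 Follicular libraries lay above the Immature ones for both, with replicate 4 far below its group for Junb only.

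Lineage regulators and receptor signalling were called mostly in gene-span counts. Of all genes tested, 32.3% were called higher and 7.15% lower in gene-span counts, and 4.71% and 1.87% in exon reads. Of 31 B cell transcription factor genes tested, 2 were higher (Myb and Erg) and 9 lower in gene-span counts, whereas in exon reads edgeR's test called Myb and Sox4 higher and none lower (7 at an unadjusted p under 0.05), as limma voom did in number, and DESeq2 called 2 higher and 1 lower. Without Follicular replicate 4 edgeR's test called 4 of them higher and 10 lower in exon reads. Of all 14800 genes tested without that library, 3129 were higher and 2284 lower. Pax5, the factor that holds B cell identity, was lower in gene-span counts by a log2 fold change of -1.41 and had 483, 522 and 553 exon CPM in Immature libraries, against 960, 1015, 1284 and 448 in Follicular libraries (adjusted p 0.16 in exon reads). Runx1 was lower by -1.55 in gene-span counts and by -0.15, which did not pass, in exon reads. The 9 gene-span calls became 22 without Follicular replicate 4 and 0 against replicate 4 alone. The 30 genes of B cell receptor signalling behaved alike: 4 were lower in gene-span counts (Fyn, Vav2 and Prkcb among them), 0 in exon reads, 18 in gene-span counts without replicate 4 and 0 against it alone. In exon reads 5 members of the receptor list had an unadjusted p under 0.05 in edgeR's test, DESeq2 called 2 higher and limma voom 1 higher. Without replicate 4, edgeR's test called 12 members higher in exon reads and 5 lower. Of the BCL2 family 5 of 14 tested were lower in gene-span counts, among them Bcl2 and Bax, and none of 15 in exon reads by edgeR's test or limma voom (8 at an unadjusted p under 0.05), while DESeq2 called 1 higher and 3 lower. Without Follicular replicate 4, edgeR's test called 3 of the family higher and 7 lower in exon reads.

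Receptors that position B cells were called in both directions. Of 19 homing and adhesion genes, 18 were tested in gene-span counts, with 4 higher (22.2%) and 4 lower. Over all genes 32.3% were higher and 7.15% lower. In exon reads 3 of 19 were higher (S1pr2, S1pr3, Cd44) and 2 lower (Ccr6, Itgb7), all 5 in both readouts. Over all genes 4.71% and 1.87% were. DESeq2 called 4 higher and 5 lower in exon reads, and limma voom 1 higher and 2 lower. The gene-span call of Cd44 (0.86, adjusted p 0.032) was lost with each of the 7 libraries left out (adjusted p 0.0663 to 0.449), with RLE scaling (0.0664), with no filter (0.568) and with DESeq2 (0.055). S1pr3, known from marginal zone B cells, had 127, 56.9 and 32.2 exon CPM in Immature libraries, against 12.3, 9.14, 10.9 and 31.2 in Follicular libraries (2.18, adjusted p 0.048). Cd44, an adhesion receptor of activated cells, had 166, 154 and 169 exon CPM in Immature libraries and 41.6, 56.5, 47.7 and 96.0 in Follicular libraries (1.43 ± 0.34, adjusted p 0.0339). Klf2, a regulator of S1pr1, was at 721 exon CPM in Immature replicate 3, against 32.6 and 48.3 in Immature replicates 1 and 2, and did not pass.

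Among innate sensing genes, a few were called. Irak4, a kinase below Toll-like receptors, had 147, 138 and 180 exon CPM in Immature libraries, against 43.7, 80.5, 43.1 and 65.1 in Follicular libraries (1.42 ± 0.32, adjusted p 0.0294, edgeR's quasi-likelihood test). Tlr7, the endosomal sensor of RNA, had 36.2, 74.8 and 64.6 exon CPM in Immature libraries and 17.7, 6.35, 13.4 and 14.4 in Follicular libraries (2.17, adjusted p 0.026), and was not called in gene-span counts. Tlr9, the sensor of DNA, was lower in gene-span counts at -2.04, with 21.4, 36.5 and 27.5 exon CPM in Immature libraries and 117, 160, 172 and 25.2 in Follicular libraries, so replicate 4 sat within the Immature range. Among 17 interferon-inducible genes tested in exon reads, edgeR's test called Ifit1 higher (3.23, adjusted p 0.034) and none lower, with a median of 1.36 and 9 genes at an unadjusted p under 0.05. DESeq2 called 6 higher and 1 lower, and limma voom 5 higher. Ifit1 had 19.4, 28.6 and 23.9 exon CPM in Immature libraries, against 3.35, 0.493, 1.02 and 5.29 in Follicular libraries. Against GC libraries of the same mice, 10 of 16 interferon-inducible genes were higher in Immature libraries in exon reads and none was lower. Of all genes, 4.6% were higher against GC and 4.71% against Follicular libraries in exon reads. In libraries labelled 1Mek2, edgeR's test of Immature against Follicular called 0 of 17 in exon reads, with a median log2 fold change of -0.17. In gene-span counts of that label 0 of 16 were higher and 2 lower.

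In the remaining programs few genes were called with all 7 libraries. Of the MHC class II genes, H2-Oa, a subunit of a peptide-loading regulator, was lower in exon reads (-1.35, adjusted p 0.026), with 169, 136 and 119 exon CPM in Immature libraries and 344, 324, 302 and 474 in Follicular libraries. H2-DMa, H2-DMb1 and Ciita were lower in gene-span counts only. No glycolysis gene was called in either readout by edgeR's test, nor in exon reads by DESeq2 or limma voom (2 of 16 at an unadjusted p under 0.05 in exon reads and 3 in gene-span counts). In gene-span counts DESeq2 called 1 higher and 3 lower and limma voom 1 higher. Cad, an enzyme of pyrimidine synthesis, was the 1 gene of the Myc and nucleolar list called, lower in both readouts. Cad had 11.3, 13.4 and 10.3 exon CPM in Immature libraries, against 51.5, 49.3, 56.7 and 20 in Follicular libraries (-1.93 ± 0.44, adjusted p 0.0308). Without Follicular replicate 4, exon reads called 4 MHC class II genes higher and 4 lower, 4 glycolysis genes higher and 1 lower, 9 cholesterol synthesis genes higher, and 7 genes of the Myc and nucleolar list higher and 2 lower. Hmgb2, a chromatin protein that also bends DNA at V(D)J joints, was higher in both readouts (1.87 ± 0.47, adjusted p 0.0434), with 234, 84.9 and 120 exon CPM in Immature libraries and 23.5, 26.9, 39.7 and 69.8 in Follicular libraries.

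The same contrast was examined in libraries labelled 1Mek2, 3 Immature and 4 Follicular, none of which entered the wild-type values. A further Immature library labelled 1Mek2 was left out because its library name gives another genotype. Map2k1, the targeted gene, had 73.2 to 175 exon CPM in the 3 Immature libraries labelled 1Mek2 that were used, against 169 to 209 in wild-type Immature libraries, and 28.7 to 230 in Follicular libraries labelled 1Mek2, against 55.7 to 247 in wild-type ones. Map2k2 had 68.2 to 83.3 exon CPM in Immature libraries labelled 1Mek2 and 53.6 to 86.0 in wild-type ones, and 79.6 to 281 in Follicular libraries labelled 1Mek2 and 68.7 to 157 in wild-type ones. The ranges overlapped between the labels, so the genotype is given here as labelled.

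Within this label, 5030 of 16271 genes differed in gene-span counts (30.9%) and 1620 of 14092 in exon reads (11.5%), 830 higher (5.89%) and 790 lower (5.61%). Of the 787 genes called in both wild-type readouts, 519 could be tested in exon reads, 513 had the same sign and 341 were called with it. In gene-span counts 602 were called with the wild-type sign. The 4 exceptions among 287 higher genes and the 2 among 232 lower ones had the opposite sign. The share of the same sign over all genes is not given here. The 26 long genes of neurons were all higher in Immature libraries of this label too, in gene-span counts. Their median log2 fold change was 5.92, against 5.89 in the wild type. How much of the agreement comes from such background reads was not tested. Cell-cycle genes were called more widely than in the wild type, with 30 of 35 higher and 1 lower in exon reads, although the difference between the labels was not tested. Mki67 had 353, 459 and 415 exon CPM in Immature libraries 2, 3 and 4, against 3.78, 5.76, 6.89 and 3.29 in Follicular libraries labelled 1Mek2. Gcsam had 374, 422 and 547 exon CPM in these Immature libraries and 4.74, 0.123, 0.134 and 0.571 in the Follicular ones. For Mki67 and Gcsam the 3 Immature libraries lay closer together than the wild-type ones. For other genes they did not: Myb had 17.2, 34.7 and 79.9 exon CPM in them, and Siglech 4.30, 86.3 and 202. The Immature library that was left out had 82.8 exon CPM of Mki67 and 44.3 of Gcsam. Cd93 had 24.2, 56.1 and 56.0 exon CPM in Immature libraries and 1.11 to 2.89 in Follicular libraries (4.42, adjusted p 0.0023, edgeR's quasi-likelihood test), and Rflnb had 83.4, 37.9 and 40.4 in Immature libraries and 274 to 496 in Follicular libraries (-2.79, adjusted p 0.0067). Chpf and Irak4 did not pass in exon reads here, at -1.28 and 0.20. Nor did Junb (-2.86), Dok2 (-3.31), Lncpint (-2.97), Pglyrp1 (-3.62), Ighm (1.12) and Iglc1 (0.66), also named by rule and called in the wild type. Their adjusted p was 0.0606, 0.0743, 0.124, 0.114, 0.114 and 0.269 in edgeR's test, with the wild-type sign kept.

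**Figure D5:**
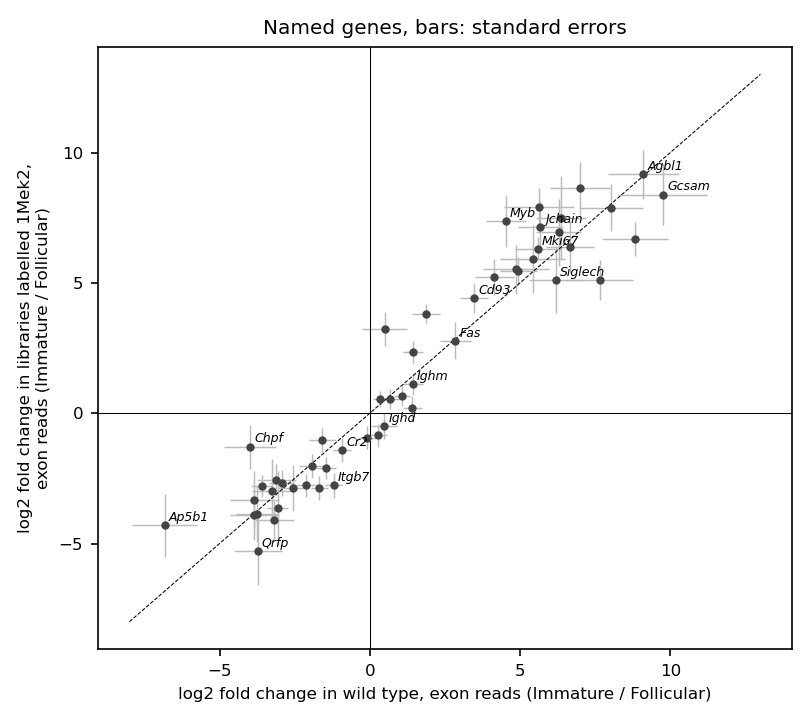
Log2 fold change of Immature over Follicular libraries in exon reads, wild type (x) against libraries labelled 1Mek2 (y), for the named genes tested in both, with bars for standard errors and a dashed line of equality. The 2 comparisons share no library, and Cd93, Gcsam and Mki67 lie in the upper right quadrant and Ap5b1, Qrfp and Itgb7 in the lower left.

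Mouse 636 gave both an Immature and a Follicular library, replicates 4 and 2 of those labelled 1Mek2. Between these 2 libraries, 743 of the 787 genes differed in the wild-type direction in exon CPM, of 783 whose values differed. The share with that direction over all genes is not given here, so the 743 cannot be weighed against it. What background reads contribute to the 743 was not tested. Gcsam had 547 exon CPM in the Immature and 0.123 in the Follicular library of this mouse, Myb 79.9 and 0.0822, and Rflnb 40.4 and 274. This is a single pair with no replicate. Ighd had 551 exon CPM in the Immature and 1976 in the Follicular library, while the other 3 Follicular libraries of the label had 523 to 637.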

How the data were processed

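Spleen B cells had been sorted by flow cytometry and sequenced as polyadenylated RNA, per the labels' protocols. Per the submitters' processing notes the build was GRCm39, and the tools named there are featureCounts 2.0.3, STAR 2.7.11a and, for trimming, Trim Galore 0.6.5. Strand handling, overlap handling and aligner settings are not given in the sources used here. The deposited count table holds whole-number counts per gene by the authors. Its gene lengths equal the gene spans for 50760 of 50763 genes, so reads on introns enter. The deposited TPM table, by the authors, uses exon lengths. TPM times length gave whole exon reads within a tolerance of 0.02 for all values checked, which left out genes with the most reads. Library names in the labels matched each column to 1 sample.

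Groups were compared with edgeR 4.0.16 (R 4.3.3): filterByExpr, TMM scaling, robust quasi-likelihood fits, two-sided tests and Benjamini-Hochberg adjustment at 0.05 over all genes tested, on each readout separately. Immature and GC libraries were compared with mouse as a block. Alternatives were RLE scaling, no filter on low counts, DESeq2 1.42.0, limma 3.58.1 (voom, and log2(TPM + 1) with mean TPM at least 1, or log2(TPM + 0.1)), each library left out, the replicate number as a block, Follicular replicate 4 as the only Follicular library (in gene-span counts), and, chosen after seeing the data, the same in exon reads, DESeq2 and voom on exon reads, and subtraction of background by length. CPM are TMM-scaled. Entries that name no gene held at most 0.126% of exon reads in any library and were left out. The fitting script was tested on simulated data.

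Genes named in the text are Cd93, Myb, Dntt and the genes of the sorted proteins, then the 12 with the largest fold change in each direction among genes called in both readouts with no overlap and a mean of at least 10 CPM in the higher group in both, then up to 4 members of each gene list called in both, and Ighm, Ighd and the light chain constant genes. Immunoglobulin and T cell receptor segments, Y-linked genes, Xist, predicted genes and pseudogenes were kept out of the ranking. Other genes were chosen after their values were seen. Some genes enter the counts of a list but are not reported here by name. The members and lists were chosen with earlier results of these data known, and some lists were adapted from that earlier work. The labels do not say that replicates were handled separately beyond their mouse numbers, so p-values measure the spread between these libraries.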

Additional observations from a re-analysis of the deposited data

Results flagged for a closer look

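In groups of 4 libraries, 26 of 120 values examined had 1 library whose gap to the nearest of the others, divided by the group's range, was above Dixon's critical value. The critical value gives about 1 in 20 by chance only for independent, normally spread values. These genes were chosen and related, and for some, such as Dntt and Agbl1, the other libraries were all at 0. The share is therefore not weighed against chance. The 26 values all fall in Follicular groups, since 3 Immature libraries are too few to examine. Of the 26, 10 are Follicular wild-type replicate 4. No explanation was tested.

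In wild-type Follicular libraries, replicate 4 was highest for Ptprc (2484 exon CPM), Sdc1 (11.1), Fcer2a (1330), Fas (11.1), Nuggc (1.16), Siglech (2.79), Agbl1 (0.145) and Ighd (2034), and for the summed markers of stromal and endothelial cells (321), and it was lowest for Junb (238). Replicate 1 was highest for Dntt (0.0599) and Cr2 (947) and lowest for the summed markers of B1 cells (41.8). Replicate 2 was highest for Iglc1 (472), and replicate 3 for Gcsam (0.231) and the summed platelet markers (8.41).

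In Follicular libraries labelled 1Mek2, replicate 1 was highest for Cr2 (846 exon CPM), Gcsam (4.74), Kcnd2 (0.0804), Qrfp (53.2) and Pglyrp1 (293) and lowest for Fas (1.61, against 22.1 to 25.3 in the other 3). Replicate 2, from mouse 636, was highest for Dntt (0.0411), Siglech (8.47), Ighm (4229) and Ighd (1976).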

How the results depend on the processing

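The 7938 gene-span calls became 18109 with no filter on low counts, 999 in exon reads and 860 with background subtracted, and 6834 to 11680 with 1 library left out (11680 without Follicular replicate 4). The 999 exon calls became 12006 with no filter, 292, 258 and 20 with limma on log2(TPM + 1), log2(TPM + 0.1) and unfiltered log2(TPM + 1), 2663 with DESeq2, 47 against Follicular replicate 4 alone, 58 with background subtracted, 0 to 5413 with 1 library left out, and 5306 with the replicate number as a block, although same-numbered libraries come from different mice and their deviations from the group means correlated at -0.11, 0.13 and 0.02 across genes. The block also took the call of Mki67 in gene-span counts (adjusted p 0.095). The cause of these shifts was not tested.

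The 5030 calls in libraries labelled 1Mek2 became 1620 in exon reads and 3330 to 7192 with 1 library left out (3330 without Immature replicate 4). The 269 calls against GC libraries became 1426 in exon reads, 582 without the mouse block and 0 to 4964 with 1 mouse left out. Of 17 marker sums, 3 did not overlap between groups in gene-span counts, 5 in exon reads and 3 to 7 with 1 library left out. The B1 marker sum was lower in Immature libraries in gene-span CPM (214, against 266 in Follicular libraries) and higher in exon CPM (192, against 98.4). Ighd, not called, was at -0.66 against Follicular replicate 4 alone and at 0.48 with all libraries. No called gene named by rule changed its sign.

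Of 44 named genes called in gene-span counts, 12 were lost against Follicular replicate 4 alone (among them Nfkb2, Junb, Fas and Cr2) and 6 with background subtracted. After that subtraction 41 of the 44 could still be tested in gene-span counts, and 35 were called. Of the 43 called in exon reads, 0 were called without Immature replicate 3, Follicular replicate 2 or Follicular replicate 3, and 43 without Follicular replicate 4. With background subtracted by exon length, 41 of the 43 could be tested and 20 were called. Limma voom called 33 of the 43 in exon reads. Genes under about 1 CPM rest on few reads.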

Other observations

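Genes of the cytosolic ribosome, a group chosen after its values were seen, were lower in Immature libraries. Of 84 ribosomal protein genes tested in exon reads, 18 were called lower and 0 higher by edgeR's quasi-likelihood test, and 76 had a negative log2 fold change, with a median of -0.80 beside 0.12 over all genes. Of all 15186 genes tested, 1.87% were called lower and 6914 had a negative log2 fold change. The summed level of the ribosomal protein genes was 22097, 25104 and 24163 exon CPM in Immature libraries, against 34894, 43874, 31915 and 40578 in Follicular libraries. Follicular replicate 4 lay within its group here. In libraries labelled 1Mek2, 47 of 83 ribosomal protein genes were lower and 0 higher, with a median of -1.31, beside 5.61% lower over all genes.

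Ccr2 and Ly6c2, genes of innate cells also chosen after their values were seen, were called higher in both readouts. Ccr2, a chemokine receptor of monocytes, had 37.2, 15.2 and 13.1 exon CPM in Immature libraries, against 0.120, 0, 0.324 and 2.25 in Follicular libraries. Ly6c2 had 10.9, 16.1 and 14.7 exon CPM in Immature libraries and 0.931 to 1.94 in Follicular libraries.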
